A study of Mus musculus with 96 samples.

Results

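Bdh1, Bdh2, Oxct1, Acat1, Slc16a1, Slc16a7 and Slc16a6 code for enzymes that make or use ketone bodies and for carriers that move them across membranes. They were taken from the table of gene counts by their names, for their roles in this pathway, and they are 7 of its 56748 genes. The table holds RNA-seq counts from poly-A RNA of liver, skeletal muscle and cerebral cortex. Male C57BL/6 mice on chow ate ad libitum (AL) or went without food for 16 h of each day (IF), starting at 6 weeks of age and lasting 4 months. By the paper's account, IF mice were sampled when their daily fast was ending. A difference between IF and AL can thus come from that last fast, the hours of feeding or the months of diet. These cannot be told apart. The males are mice 1 to 8 (AL) and 9 to 16 (IF). Mice 25 to 32 (AL) and 33 to 40 (IF) are female by their labels, which give tissue, sex and diet. The strain, age, time on diet and time of sampling are stated for the males and not for these females. AL and IF mice have different numbers, and libraries of the 3 tissues with the same mouse number were taken to come from the same animal, which is not stated.

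In a fast the liver turns fatty acids from fat stores into acetoacetate and beta-hydroxybutyrate, which leave the hepatocyte through monocarboxylate carriers and reach brain and muscle in the blood. There they enter the cell through related carriers and are turned back into acetyl-CoA for the citric acid cycle. The liver is known for making ketone bodies without using them, since hepatocytes hold very little of the CoA transferase that Oxct1 codes for.

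All 96 columns held between 26097314 and 49838004 reads, and 95 were used, 47 from mice 1-16 and 48 from mice 25-40. The AL cortex library of mouse 1, labelled male, goes against its label: it held 10219 reads of Xist and 0 reads of 4 Y-linked genes. The other libraries of mice 1-16 held at most 25 reads of Xist and at least 2166 of the 4 Y-linked genes, and those of mice 25-40 at least 1407 and at most 3. That library was left out of all results but those of 1 alternative that puts it back, so AL cortex of mice 1-16 has 7 libraries and every other group has 8. Marker genes of the labelled tissue were present in each tissue. In AL mice 1-16 the most abundant were Alb in liver (34989 CPM), Acta1 in muscle (43609 CPM) and Snap25 in cortex (2428 CPM). CPM are a library's reads of a gene scaled by all its counted reads, and SD are over mice. In bulk tissue, fewer cells of a type and less RNA per cell cannot be told apart.

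In fed mice Oxct1 was lowest in liver, while Bdh1 and Bdh2 were highest there. Oxct1, whose enzyme moves CoA from succinyl-CoA to acetoacetate, ran in AL mice 1-16 from 1.26 CPM over a median of 2.48 to 2.78 in liver. In muscle it ran from 174 over 212 to 292 CPM, and in cortex from 228 over 237 to 244 CPM. No liver library came near the lowest of the other tissues. The fitted difference was 6.91 on the log2 scale for muscle against liver (95% interval 6.54 to 7.27, adjusted p = 1.39e-17, higher in 8 of 8 mice) and 5.97 for cortex against liver (5.61 to 6.33, adjusted p = 9.54e-17, higher in 7 of 7 mice). Adjusted p-values come from edgeR's quasi-likelihood test, corrected over all genes tested by Benjamini-Hochberg, and genes under 0.05 are called.

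Bdh1, the mitochondrial dehydrogenase that converts acetoacetate and beta-hydroxybutyrate into each other, was highest in liver. Its AL levels in mice 1-16 ran from 98.2 over 121 to 138 CPM in liver, from 10.2 over 23.8 to 54.3 CPM in muscle and from 48.6 over 52.7 to 55.3 CPM in cortex. The liver stood clear of both other tissues, and the muscle values were the widest of the 3 and overlapped those of cortex. Bdh2, a cytosolic member of the dehydrogenase family, had mean levels of 19.4 ± 2.79 CPM in liver, 1.07 ± 0.410 in muscle (both n = 8) and 1.29 ± 0.362 in cortex (n = 7). Its fitted difference was -4.00 for muscle and -4.77 for cortex against liver (adjusted p = 2.65e-12 and 4.90e-13), lower in 8 of 8 and 7 of 7 mice. Acat1, the mitochondrial thiolase that joins and splits acetoacetyl-CoA, had means of 163 ± 24.0 CPM in liver, 173 ± 12.5 in muscle and 81.1 ± 5.79 in cortex. Cortex was at -1.82 against liver and -2.13 against muscle on the log2 scale (SE 0.10 for each, adjusted p = 9.30e-13 and 1.13e-13), lower in 7 of 7 mice and without overlap.

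The carriers differed in where they stood. Slc16a7, a carrier of high affinity for monocarboxylates, ran from 34.8 over 44.2 to 53.0 CPM in AL liver of mice 1-16. In muscle it ran from 0.192 over 0.408 to 0.808 CPM, which is 9 to 26 reads a library, and in cortex from 19.4 over 23.3 to 26.2 CPM. The tissues did not overlap in any pair, and muscle was lowest, at -6.35 against liver (adjusted p = 2.99e-17, lower in 8 of 8 mice). Slc16a1, the carrier found in most tissues, had close means of 23.6 ± 6.21, 24.9 ± 3.93 and 29.4 ± 0.946 CPM in liver, muscle and cortex, and every pair of tissues overlapped. Slc16a6, a carrier linked to the release of ketone bodies from liver, had means of 7.81 ± 2.57, 2.55 ± 0.585 and 5.15 ± 1.19 CPM in the same order.

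Comparisons of level between tissues depended on scaling for part of the genes. The TMM factors, by which edgeR scales libraries, averaged 0.885 in liver, 0.760 in muscle and 1.58 in cortex of AL mice 1-16, and the median log2 difference over all genes was 0.25 for cortex against liver, 0.24 for cortex against muscle and 0.03 for muscle against liver. A fit with library sizes alone, chosen after seeing the data, leaves out a factor that averaged 0.84, 1.05 and -0.22 on the log2 scale for these pairs. In it the sign turned for cortex against muscle in Bdh1, Bdh2, Oxct1, Slc16a1 and Slc16a6, and for cortex against liver in Slc16a1. Oxct1, for example, went from -0.93 with TMM to 0.12 in cortex against muscle, where the CPM medians were 237 and 212. The differences of Oxct1, Slc16a7, Bdh1 and Bdh2 from liver, and of Acat1 in cortex from either tissue, kept their sign under TMM, RLE and library sizes. Acat1 and Slc16a1, at 0.31 and 0.32 in muscle against liver with TMM, were at 0.10 each and not called with library sizes. With TMM, 7 of the 7 genes differed between muscle and liver, where 79.2% of all genes tested did. The count was 7 for cortex against liver (83.4%) and 5 for cortex against muscle (80.2%). Bdh1 at -0.04 and Slc16a6 at -0.05 did not pass that last comparison. In AL mice 25-40 the counts were 5 for muscle against liver (79.1%), 6 for cortex against liver (84%) and 5 for cortex against muscle (80.5%). At these shares a call says little about these genes, and the sizes are what set them apart.

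Mice 25-40 kept the widest of these contrasts. Oxct1 had AL means of 4.00 ± 3.12 CPM in liver, 302 ± 42.0 in muscle and 216 ± 12.1 in cortex. Slc16a7 had means of 93.0, 0.793 and 23.7 CPM, and Bdh1 means of 236 ± 75.0, 20.8 ± 16.3 and 57.7 ± 3.39 CPM (n = 8 for each). The AL livers of mice 25-40 lay above all AL livers of mice 1-16 in Slc16a7, with a lowest value of 71.6 CPM. Acat1 overlapped between liver (107 to 360 CPM) and muscle (158 to 240.4 CPM) in these mice.

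**Figure D1:**
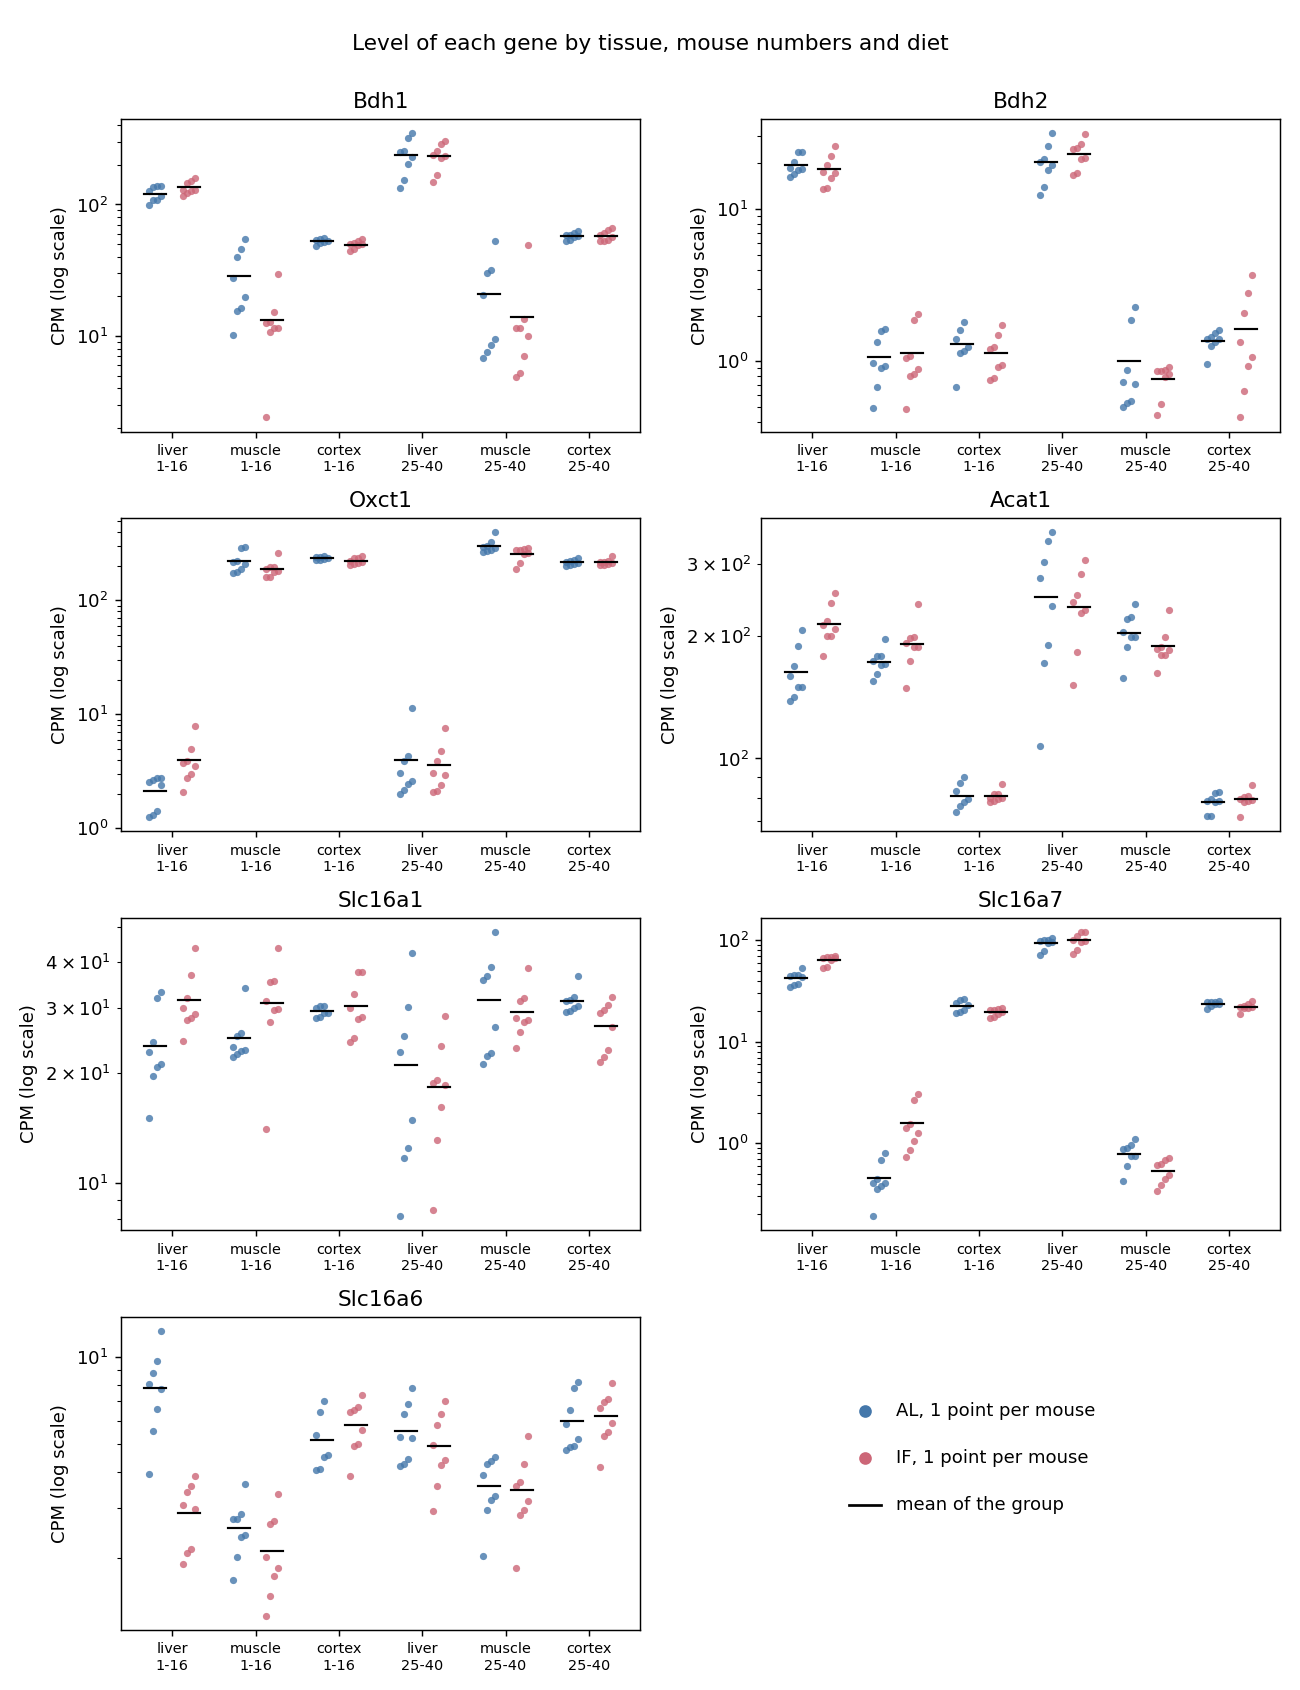
CPM on a log scale for each gene, by tissue and mouse numbers, with AL in blue and IF in red, 1 point per mouse and a black line at the mean of each group. Oxct1 is lowest in liver and Slc16a7 lowest in muscle in both sets of mice, and in liver of mice 1-16 the AL and IF groups are apart in Slc16a6 and touch at 53.0 CPM in Slc16a7.

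Per kilobase of gene length, the order of the levels within AL liver of mice 1-16 was Acat1 (43.4 ± 6.39 CPM per kb), Bdh1 (31.1 ± 4.01), Slc16a1 (5.34 ± 1.40), Bdh2 (4.57 ± 0.657), Slc16a7 (3.59 ± 0.515), Slc16a6 (1.60) and Oxct1 (0.578 ± 0.186). Of the neighbours in that order, Slc16a1 overlapped Bdh2, and Bdh2 overlapped Slc16a7. In muscle the order per kb was Oxct1 (59.5 ± 12.3), Acat1 (46.1 ± 3.33), Bdh1 (7.38 ± 4.15), Slc16a1 (5.63 ± 0.889), Slc16a6 (0.523), Bdh2 (0.251 ± 0.0964) and Slc16a7 (0.0388 ± 0.0166). There Oxct1 overlapped Acat1, Bdh1 overlapped Slc16a1, and Slc16a6 overlapped Bdh2. In cortex no neighbours overlapped, and the order per kb was Oxct1 (63.7 ± 1.72), Acat1 (21.6 ± 1.54), Bdh1 (13.5 ± 0.594), Slc16a1 (6.64 ± 0.214), Slc16a7 (1.91 ± 0.239), Slc16a6 (1.05 ± 0.243) and Bdh2 (0.305 ± 0.0853). By the means of these AL mice, Oxct1 was thus the least abundant of the 7 genes per length in liver and the most abundant in the other tissues. In IF livers of mice 1-16 Slc16a6 was lowest (0.589 ± 0.151) and Oxct1 next (1.08 ± 0.488). In IF muscle of mice 1-16 Oxct1 lay above Acat1 in 4 of 8 libraries.

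Whether the diet changed these genes was asked in each tissue and set of mice. In liver of mice 1-16, the tissue of ketone body synthesis, Oxct1, Acat1 and Slc16a7 rose under IF, and Slc16a6 fell. These are 4 of the 7 genes tested, where 44.6% of all 16204 genes tested were called. The median log2 fold change was 0.30 over the 7 genes and 0.06 over all genes. At that background the count of 4 is not in itself a result about these genes.

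Among the enzymes, Acat1 ran from 139 over 155 to 207 CPM in AL livers and from 178 over 210.2 to 256 CPM in IF livers. All 8 IF livers lay above the AL median, and the groups overlapped. Its log2 fold change was 0.30 (SE 0.11, adjusted p = 0.0321). The call was lost in 9 of the 16 fits that each left out a library (AL mice 2, 4, 5, 7 and 8, IF mice 11, 12, 13 and 14), with changes of 0.25 to 0.29 and adjusted p of 0.0544 to 0.0917. It was also lost with RLE factors, the scaling of DESeq2 (0.27, adjusted p = 0.0527), with no filter on low counts (0.26, 0.0713) and without mice 2 and 10 (0.28, 0.0621). Over its 22 alternatives the adjusted p ran from 0.0126 to 0.0917 and was under 0.05 in 10.

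Bdh1 ran from 98.2 over 121 to 138 CPM in AL and from 117 over 129 to 159 CPM in IF livers, and 7 of 8 IF livers lay above the AL median. The groups overlapped between 117 and 138 CPM, and the log2 fold change was 0.07 (95% interval -0.14 to 0.29, adjusted p = 0.601). Bdh2 was at 19.4 ± 2.79 CPM in AL and 18.2 ± 4.21 in IF livers (n = 8 each), with a log2 fold change of -0.18 (95% interval -0.49 to 0.13, adjusted p = 0.343, lower in 5 of 8).

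Oxct1, the enzyme of use, stood at low levels in liver in both groups. AL livers ran from 1.26 over 2.48 to 2.78 CPM, or 36 to 118 reads, and IF livers from 2.08 over 3.63 to 7.92 CPM, or 85 to 249 reads. IF mouse 16 was highest with 7.92 CPM and IF mouse 9 next with 5.01 CPM, and all IF livers but those of mice 12 and 13 lay above every AL liver. The log2 fold change was 0.81 (SE 0.26, adjusted p = 0.0132, higher in 7 of 8), a 1.76-fold rise. The mice were perfused before sampling, by the paper's account, and erythrocyte markers rose in the same livers: 3 of 5 were called, and their summed level went from 577 ± 193 CPM (362 to 956) in AL to 2576 ± 2166 CPM (667 to 6879) in IF. Hba-a1 was the most abundant of them, and none was at 0. Of the endothelial markers 2 of 5 rose (Flt1 and Tek; sums of 51.2 ± 8.15 and 69.6 ± 15.9 CPM), and of the macrophage markers 1 of 5 (C1qa; sums of 59.1 ± 9.86 and 97.2 ± 57.4 CPM), where 44.6% of all genes were called. The 3 IF livers above 3000 CPM in the erythrocyte sum were those of mice 9, 10 and 16. Without them, a choice made after seeing the data, the log2 fold change of Oxct1 was 0.44 (adjusted p = 0.192). Mice 9 and 16 are also the highest in Oxct1 itself, so leaving them out lowers its change whatever the source and is no test of blood. Over the other 21 alternatives Oxct1 was called, and the lowest adjusted p was 0.00632. The part of the erythrocyte, endothelial and macrophage markers in the rise of Oxct1 was not tested.

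Among the carriers, Slc16a6 gave the widest separation. Its AL livers ran from 3.91 over 7.87 to 12.3 CPM, and its IF livers from 1.92 over 3.01 to 3.85 CPM. Every IF liver lay below every AL liver, with AL mouse 6 and IF mouse 9 nearest to each other. Slc16a6 fell by 1.53 on the log2 scale (SE 0.20, adjusted p = 1.08e-06, lower in 8 of 8), a level 2.89-fold lower, and it was called under all 22 alternatives (-1.62 to -1.39). The gene shares 225 bases with Arsg on the other strand, and Arsg fell by 2.25 in the same livers, from a mean of 12.3 to 2.74 CPM. It also shares 1959 bases with Amz2, which rose by 0.51. The libraries were directional, with dUTP in the second strand, but the strand setting of the counting is not stated, and the part of shared reads in the fall of Slc16a6 was not tested.

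Slc16a7 ran from 34.8 over 44.2 to 53.03 CPM in AL and from 53.04 over 66.7 to 70.1 CPM in IF livers. The groups touched without overlap, with AL mouse 6 and IF mouse 10 almost level. The log2 fold change was 0.49 (SE 0.11, adjusted p = 5.06e-04, higher in 8 of 8), a 1.41-fold rise, and it was called under all 22 alternatives (0.42 to 0.56). Slc16a1 ran from 15.1 over 22.0 to 33.3 CPM in AL and from 24.5 over 29.5 to 43.8 CPM in IF livers. All 8 IF livers lay above the AL median, and the groups overlapped. Its log2 fold change of 0.33 (SE 0.14, adjusted p = 0.0539) did not pass. It did pass without AL mouse 1 (0.42, adjusted p = 0.0158), AL mouse 2 (0.38, 0.0356) or IF mouse 9 (0.36, 0.0355), and without mice 2 and 10 together (0.38, 0.0419). The range of adjusted p over its 22 alternatives was 0.0158 to 0.143.

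Counts of related genes called in liver of mice 1-16 stand beside the 44.6% of all genes called there (3815 higher, 3419 lower). Of 8 other genes for enzymes of ketone body metabolism, 5 were tested in liver of mice 1-16, and 1 rose and 1 fell, with a list median of 0.13. The one that fell was Acat3, from 149 ± 17.0 to 79.5 ± 12.4 CPM. Of 16 related carriers and their chaperones 12 were tested, and 3 rose and 1 fell, with a list median of 0.28. Slc16a5 went from 5.14 ± 2.02 to 22.7 ± 8.73 CPM (2.04), Slc16a13 from 3.08 ± 1.61 to 6.69 ± 0.745 CPM (1.03) and Slc16a4 from 4.11 ± 0.988 to 2.01 ± 1.05 CPM (-1.14). Around the pathway, 12 of 18 genes tested for mitochondrial fatty acid oxidation rose and 1 fell, with a median of 0.67. Decr1 (1.65), Acadvl (1.74) and Acads (1.35) were the largest of these. Among 10 regulators 7 rose and 1 fell, Angptl4 from 57.6 ± 26.9 to 444 ± 78.5 CPM. Of 13 genes tested for breakdown of branched-chain and ketogenic amino acids, 2 rose and 5 fell, Bcat2 by a log2 fold change of -1.07 and Bckdha by 0.92.

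**Figure D2:**
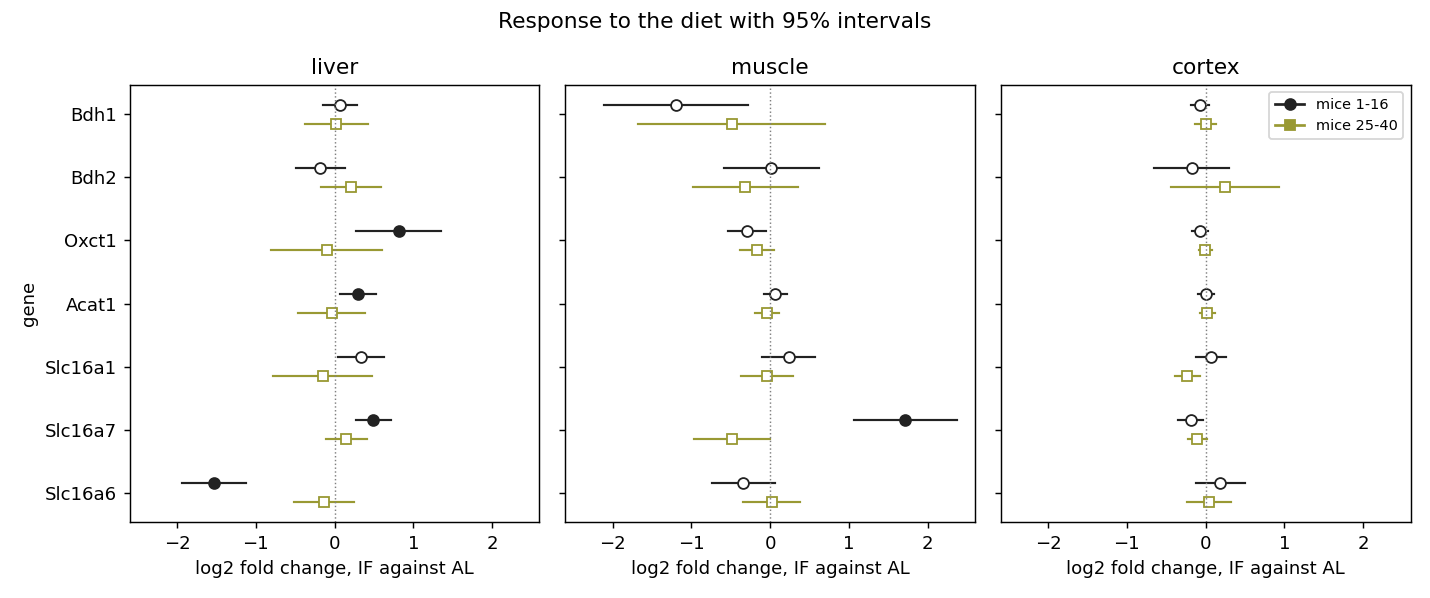
Log2 fold change of each gene, IF against AL, with its 95% interval in liver, muscle and cortex, as circles for mice 1-16 and squares for mice 25-40, filled where the gene was called. The 5 filled points are Oxct1, Acat1, Slc16a7 and Slc16a6 in liver and Slc16a7 in muscle, all of mice 1-16.

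In muscle of mice 1-16, a tissue that burns ketone bodies, Slc16a7 rose under IF, and the other 6 genes were not called. This is 1 of 7, where 23% of the 15025 genes tested were called. Slc16a7 ran from 0.192 over 0.408 to 0.808 CPM in AL and from 0.742 over 1.35 to 3.09 CPM in IF muscle. Only AL mouse 7 and IF mouse 11 made the groups overlap, and all 8 IF libraries lay above the AL median. The log2 fold change was 1.72 (SE 0.31, adjusted p = 4.65e-04), a 3.29-fold rise that left the gene far below its level in liver. The IF values rested on 21 to 139 reads a library, and the gene was called under all 22 alternatives (1.27 to 1.87).

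Adipocyte markers also rose in these muscles. Of 5 markers 4 rose, and their summed level went from 118 ± 96.1 CPM (30.3 to 319) in AL to 759 ± 529 CPM (107 to 1701) in IF. Cfd was the most abundant of them, and none was at 0 in either group. IF mouse 12 was highest in both Slc16a7 (3.09 CPM) and the sum (1701 CPM), IF mouse 10 followed in both (2.70 and 1286 CPM), and IF mouse 11 was lowest in both (0.742 and 107 CPM). Without mice 10 and 12, a choice made after seeing the data, the log2 fold change of Slc16a7 was 1.27 (adjusted p = 0.00328). These mice are also the highest in Slc16a7 itself. Other marker lists moved in the same muscles, where 23% of all genes were called. Of 2 hepatocyte markers tested 1 rose (Cyp2e1), and the sum of that list went from 6.16 ± 3.96 to 96.7 ± 57.1 CPM. Nearly all of that sum was Cyp2e1, with means of 5.54 CPM in AL and 95.4 CPM in IF, so it does not speak for the list. Of the astrocyte markers 3 of 4 tested rose. Of the muscle fibre markers 2 of 5 fell, and of the macrophage markers 1 of 3 tested fell. The part of these and of the adipocyte markers in the rise of Slc16a7 was not tested.

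Bdh1 in muscle ran from 10.2 over 23.8 to 54.3 CPM in AL and from 2.41 over 12.1 to 29.8 CPM in IF mice 1-16. The groups overlapped, and 7 of 8 IF libraries lay below the AL median. Its log2 fold change was -1.19 (SE 0.43, adjusted p = 0.0578), which did not pass. It did pass with DESeq2 (-1.20, adjusted p = 0.0197), without IF mouse 12 (-1.46, 0.0224), without AL mouse 8 (-1.32, 0.032) and without mice 10 and 12 together (-1.47, 0.0344), out of 22 alternatives with adjusted p of 0.0197 to 0.17. Markers of slow or oxidative fibres, of which 0 of 5 were called by edgeR, summed to 1467 ± 845 CPM (409 to 2934) in AL and 777 ± 299 CPM (98.4 to 1035) in IF, with Myh2 most abundant and none at 0. IF mouse 9 was lowest in Bdh1 (2.41 CPM) and in the sum (98.4 CPM), and AL mouse 5 was highest in both (54.3 and 2934 CPM). Their part in the level of Bdh1 was not tested.

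**Figure D3:**
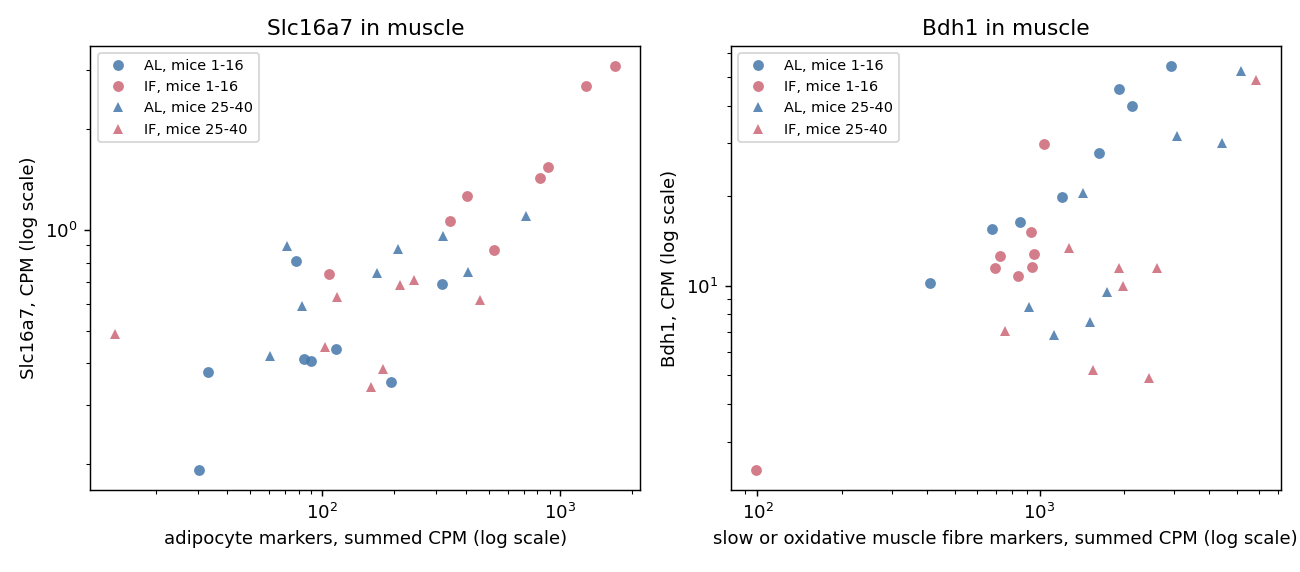
Muscle libraries with the CPM of Slc16a7 against the summed CPM of 5 adipocyte markers (left) and the CPM of Bdh1 against the summed CPM of 5 slow or oxidative fibre markers (right), on log scales, 1 point per mouse. IF mice 10 and 12 stand at the top right on the left, and IF mouse 9 at the bottom left on the right.

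Oxct1 in muscle ran from 174 over 212 to 292 CPM in AL and from 159 over 184 to 262 CPM in IF mice 1-16. The ranges overlapped, with 7 of 8 IF libraries below the AL median, and the log2 fold change was -0.29 (SE 0.11, adjusted p = 0.0722). It passed with DESeq2 (-0.29, adjusted p = 0.0397), without IF mouse 12 (-0.36, 0.0162), without AL mouse 4 (-0.33, 0.0385) and without mice 10 and 12 together (-0.33, 0.0316), out of 22 with adjusted p of 0.0162 to 0.218. Slc16a1 was at 24.9 ± 3.93 CPM in AL and 30.9 ± 8.54 in IF muscle (0.24, adjusted p = 0.31, higher in 7 of 8), and passed without IF mouse 9 (0.34, adjusted p = 0.0151), the only one of 22 alternatives, up to 0.588, in which it did. Slc16a6 had a log2 fold change of -0.34 (adjusted p = 0.213), Acat1 of 0.07 (0.516) and Bdh2 of 0.01 (0.981), with overlapping groups, lower in 5 of 8, higher in 7 of 8 and higher in 4 of 8 libraries.

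Over all genes tested in these muscles, 1726 rose and 1737 fell. Of the other enzymes 4 were tested and 3 rose, with a list median of 1.41, among them Acat2 from 3.28 ± 1.04 to 9.92 ± 6.67 CPM (1.51) and Aacs from a mean of 6.76 to 17.7 CPM (1.31). The receptors Hcar1, from 0.438 ± 0.364 to 5.03 ± 5.33 CPM (3.43), and Hcar2, from 0.122 ± 0.134 to 2.12 ± 1.91 CPM (3.97), both rose, with a wide spread among IF mice. The part of the adipocyte markers in the values of these lists was not tested. Of 12 related carriers and chaperones tested 2 fell, Slc16a10 (-0.40) and Slc16a3 (-0.34), and 0 rose. For fatty acid oxidation 3 of 19 rose, with Cpt1a at 1.06, and among 7 regulators tested 4 rose and 1 fell, with Angptl4 at 2.80 and Pdk4 at 2.58. Of 12 amino acid genes tested 3 rose and 1 fell, Fah at 1.33 the largest.

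In cortex of mice 1-16, a tissue that takes up ketone bodies in a fast, edgeR called 0 of the 7 genes, where 7.21% of the 18462 genes tested were called. Over all genes the count, 1332, was 2259 with DESeq2 and 294 with the AL library of mouse 1 put back. It was 382 with replicate number as a block and 498 without mice 2 and 10. DESeq2 also called 0 of the 7, and 1 had an unadjusted p under 0.05, as had 4400 of all genes tested. That gene was Slc16a7, which ran from 19.4 over 23.3 to 26.2 CPM in AL (n = 7) and from 17.0 over 20.2 to 21.6 CPM in IF (n = 8). All 8 IF libraries lay below the AL median, and the groups overlapped. The log2 fold change was -0.19 (95% interval -0.35 to -0.03, adjusted p = 0.129). The largest of the other 6 were Slc16a6 at 0.19 (higher in 7 of 8, adjusted p = 0.487) and Bdh2 at -0.18 (lower in 5 of 8, adjusted p = 0.684). Oxct1 was at 236 ± 6.38 CPM in AL and 223 ± 15.1 in IF cortex, with a log2 fold change of -0.07 (95% interval -0.17 to 0.03). Of the oligodendrocyte markers 4 of 5 rose in these cortices, from a sum of 5443 ± 929 to 7894 ± 1361 CPM with Mbp most abundant, and 1 of 5 endothelial and 1 of 5 astrocyte markers fell. Their part in the levels of the 7 genes was not tested. In the lists of related genes, Cpt1a (0.34), Angptl4 (0.97) and Ivd (0.23) rose, Sirt1 (-0.33) fell, and no other enzyme or carrier of ketone bodies was called.

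In mice 25-40 edgeR called 0 of the 7 genes in each tissue, as did DESeq2. The background by edgeR was 0% in liver (0 of 15938, and 919 at an unadjusted p under 0.05), 0.00653% in muscle (1 of 15308) and 0.0109% in cortex (2 of 18403). DESeq2 called 6 genes in liver, 91 in muscle and 73 in cortex. At an unadjusted p under 0.05 there were 0 of the 7 in liver, 1 in muscle (1644 of all genes) and 1 in cortex (2069 of all genes). The gene in muscle was Slc16a7, which ran from 0.421 over 0.813 to 1.10 CPM in AL and from 0.340 over 0.554 to 0.709 CPM in IF. The groups overlapped with all 8 IF libraries below the AL median, and the log2 fold change was -0.48 (95% interval -0.96 to 0.00, adjusted p = 0.464). In cortex it was Slc16a1, at 31.4 ± 2.39 CPM (29.3 to 36.7) in AL and 26.9 ± 4.19 CPM (21.4 to 32.3) in IF, with 7 of 8 IF libraries below the AL median. Its log2 fold change was -0.23 (95% interval -0.39 to -0.08, adjusted p = 0.337), and the groups overlapped.

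In liver of mice 25-40 the log2 fold changes lay between -0.15 for Slc16a1 and 0.21 for Bdh2. Their intervals were wide in places: that of Oxct1, at -0.10, ran from -0.80 to 0.61, and that of Slc16a1 from -0.78 to 0.47. The sign for Oxct1 rested on AL mouse 28 (11.5 CPM, with 2.01 to 4.32 CPM in the other AL livers), since it was 0.34 without that mouse, and it also turned with the replicate block (0.05). The sign turned for Slc16a1 without AL mouse 29 (0.08), for Acat1, at -0.04, without AL mice 28, 29 or 30 or IF mice 33 or 35 (0.01 to 0.06) and with the replicate block (0.02), and for Bdh1, at 0.02, without AL mice 26, 27 or 31 or IF mice 39 or 40 (-0.07 to -0.02). Slc16a6 was at 5.53 ± 1.32 CPM in AL and 4.89 ± 1.41 CPM in IF livers (-0.14, 95% interval -0.52 to 0.24, n = 8 each), and its groups overlapped. That interval leaves out the -1.53 measured in mice 1-16, with -0.52 as its bound nearest to it. Slc16a7 was at 93.0 and 99.9 CPM (0.15, 95% interval -0.11 to 0.41). In muscle, Bdh1 ran from 6.82 to 52.4 CPM in AL and from 4.89 to 48.9 CPM in IF (-0.48, 95% interval -1.67 to 0.70). The value was -0.15 without AL mouse 28 and -1.11 without IF mouse 36. AL mouse 28 (52.4 CPM) and IF mouse 36 (48.9 CPM) were highest in it, and the same muscles had the highest sums of slow or oxidative fibre markers of their groups (5176 and 5833 CPM). The adipocyte sum in muscle was 255 ± 224 CPM in AL and 186 ± 132 CPM in IF mice 25-40, and no gene of the marker or pathway lists was called in the diet comparisons of these mice.

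Whether the response differed between the sets of mice was tested as the interaction of set and diet in each tissue. In liver 1 of the 7 genes differed, where 23.7% of all genes did: Slc16a6, whose response was 1.43 higher in mice 25-40 than in mice 1-16 (SE 0.27, adjusted p = 1.21e-04). Arsg, which overlaps Slc16a6, changed by -2.25 in liver of mice 1-16 and by -0.59 in liver of mice 25-40. Amz2, which also overlaps Slc16a6, changed by 0.51 and 0.07, and the part of shared reads in the difference was not tested. In muscle 1 differed, where 14.2% did: Slc16a7, with a difference of -2.17 (SE 0.39, adjusted p = 2.59e-04). It lay above the AL median in 8 of 8 IF muscles of mice 1-16 and below it in 8 of 8 of mice 25-40. The adipocyte sums of these muscles went from 118 to 759 CPM in mice 1-16 and from 255 to 186 CPM in mice 25-40, and their part in the difference was not tested. In cortex 0 of 7 differed by edgeR, where 2.03% did, and 1 of the 7, beside 3007 of all 19547 genes, had an unadjusted p under 0.05, Slc16a1 (-0.30, adjusted p = 0.209). Oxct1 in liver, called in mice 1-16 alone, had a difference of -0.88 that did not pass (95% interval -1.76 to 0.01, adjusted p = 0.149), nor did Acat1 (-0.30, adjusted p = 0.398) or Slc16a7 in liver (-0.31, adjusted p = 0.18). The sets differ in sex, and sex cannot be told apart from any other difference between these animals or their handling.

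Whether the response differed between tissues was tested with animal as a block, and the 3 tissue pairs share libraries. The fit takes 1 spread per gene over the 3 tissues, though the spread can differ between tissues. In mice 1-16, 4 of the 7 genes differed between muscle and liver, where 31% of genes did. Relative to liver, the response in muscle was lower for Bdh1 (-1.20, SE 0.34, adjusted p = 0.00669) and Oxct1 (-1.01, SE 0.24, adjusted p = 0.00133). It was higher for Slc16a7 (1.24, SE 0.28, adjusted p = 8.01e-04) and Slc16a6 (1.21, SE 0.30, adjusted p = 0.00195). For Bdh1 the SE of 0.34 is below the SE of 0.43 in muscle fitted alone, where Bdh1 was not called. Its adjusted p between tissues may thus be too small. Between cortex and liver 3 differed, where 26.7% did: Oxct1 (-0.82, adjusted p = 0.0112), Slc16a7 (-0.68, 0.0258) and Slc16a6 (1.73, 4.06e-05). Acat1 was at -0.28 there (adjusted p = 0.0706) and passed with library sizes alone (-0.41, 0.00493). Between cortex and muscle 1 differed, where 3.8% did: Slc16a7 (-1.91, SE 0.28, adjusted p = 1.13e-04). Under IF the erythrocyte sum in liver went from 577 to 2576 CPM, and the adipocyte sum in muscle from 118 to 759 CPM. The slow or oxidative fibre sum in muscle went from 1467 to 777 CPM, and the oligodendrocyte sum in cortex from 5443 to 7894 CPM. Of the genes that overlap Slc16a6, Arsg changed by -2.25 in liver and 0.53 in cortex, and Amz2 by 0.51 and -0.13. The part of the markers and of shared reads in these differences was not tested. In mice 25-40 edgeR called 0 of the 7 for muscle against liver (0.0047%), cortex against liver (0%) and cortex against muscle (0.0047%). At an unadjusted p under 0.05 there were 1, 0 and 0 of the 7 in that order, the 1 being Slc16a7 (-0.58, adjusted p = 0.435), and 1648, 2037 and 1160 of the 21292 genes tested. The shared spread can also widen a test. For Acat1 in cortex against muscle of these mice the SE was 0.20, beside 0.04 in cortex alone and 0.07 in muscle alone. The counts of 0 thus do not show that the tissues responded alike.

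The genes whose levels over all 95 libraries were most like each of the 7 were found among 15853 genes of at least 1 CPM on average, by the root mean square difference of centred log2 CPM. For Acat1 these were Echs1 (0.23) and Mmut (0.27), where the median over all genes was 1.54. For Oxct1 they were Cacnb1 (0.47) and Sema4d (0.57, median 3.03), for Slc16a7 Pgrmc1 (0.49) and Gk (0.62, median 2.93), and for Bdh2 Ccs (0.53) and Gcat (0.56, median 2.44). For Bdh1 they were D130020L05Rik (0.66) and Idnk (0.67, median 1.94). Slc16a1 was nearest to Gorasp2 (0.35) and Stt3b (0.36), and Slc16a6 to Neil1 (0.40) and Gorasp1 (0.42), where the medians over all genes were 1.24 and 1.23.

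The 7 genes lie on 6 chromosomes of GRCm39, with Bdh2 and Slc16a1 both on chromosome 3. Bdh1 (ENSMUSG00000046598) is on chromosome 16 from 31241098 to 31277719, Oxct1 (ENSMUSG00000022186) on 15 from 4055865 to 4184826, and Acat1 (ENSMUSG00000032047) on 9 from 53491822 to 53521682. Bdh2 (ENSMUSG00000028167) is on 3 from 134986982 to 135010187 and Slc16a1 (ENSMUSG00000032902) on 3 from 104545984 to 104565778. Slc16a7 (ENSMUSG00000020102) is on 10 from 125055139 to 125225334, and Slc16a6 (ENSMUSG00000041920) on 11 from 109341681 to 109364424. Lengths in the deposited table run from 3701 bases for Oxct1 to 11839 for Slc16a7. Of these genes, Bdh2 and Acat1 overlap no other gene in the table.

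RefSeq promoter windows of 300 bases around the start, from build GRCm38.p6, were found for 4 of the 7 genes (5 windows, with 2 for Bdh1) and not for Acat1, Slc16a7 and Slc16a6. GC content was 48.3% and 63.7% in the windows of Bdh1, 48.7% in Bdh2, 55.3% in Oxct1 and 73.7% in Slc16a1, where the median of all 32851 promoters was 52.7%. Windows were searched on both strands for AGGTCA (in 16.3% of all promoters), AGGTCANAGGTCA (0.0396%), CACGTG (7.15%), TGACGTCA (1.79%), GGGCGG (35.7%) and TATAAA (13.6%). Slc16a1 held CACGTG from base 51 and GGGCGG from base 166, and the Bdh1 window that starts at 31428503 held GGGCGG on the other strand from base 266. None of the motifs was in the windows of Bdh2 and Oxct1 or in the other window of Bdh1. Printed here are the window of Oxct1, the gene of this set that rose in liver and has a window, at chr15:4026178-4026477 on the plus strand, and for contrast that of Slc16a1, at chr3:104638414-104638713 on the plus strand, with matched motifs in capitals. A match is a description of letters and not a site.
Oxct1: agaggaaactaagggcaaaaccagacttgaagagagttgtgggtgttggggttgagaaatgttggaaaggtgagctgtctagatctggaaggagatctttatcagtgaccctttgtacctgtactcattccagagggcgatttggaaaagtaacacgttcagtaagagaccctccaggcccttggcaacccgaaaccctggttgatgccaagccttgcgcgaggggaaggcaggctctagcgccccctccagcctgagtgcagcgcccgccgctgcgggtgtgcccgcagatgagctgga
Slc16a1: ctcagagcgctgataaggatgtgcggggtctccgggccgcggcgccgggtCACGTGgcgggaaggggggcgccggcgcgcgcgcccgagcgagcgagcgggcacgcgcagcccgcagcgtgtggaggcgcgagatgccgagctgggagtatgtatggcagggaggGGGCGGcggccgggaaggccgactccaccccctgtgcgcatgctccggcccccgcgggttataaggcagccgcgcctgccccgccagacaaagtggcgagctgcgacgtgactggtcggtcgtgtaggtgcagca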

How the data were processed

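Per the labels, the authors sequenced directional poly-A RNA libraries, aligned reads with Hisat2 to GRCm39 and counted reads per gene with featureCounts. The values used are the raw counts as deposited, 56748 genes by 96 libraries, without normalization; the strand setting is not stated. The gene lengths in bases (unit other) are those of the table the authors deposited. Members and lists were chosen with earlier results of these data known. The AL cortex library of mouse 1 was left out, since its sex-linked genes go against its label. The other 95 libraries held 26097314 to 49838004 reads. No columns were identical.

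Counts were scaled by TMM, filtered by filterByExpr (minimum count 10, total 15) and tested by the edgeR 4.0.16 quasi-likelihood test (robust) in R 4.3.3 with Benjamini-Hochberg correction over all genes tested, called at an adjusted p under 0.05. Each tissue and set of mice was fitted alone for diet. Set by diet interactions used both sets, and comparisons of tissues used animal, taken from the mouse number, as a block. The fits were tested on simulated data. Alternatives were DESeq2 1.42.0, RLE factors, no filter, replicate number as a block, no animal block, mice 2 and 10 left out, the left-out library put back, and each library left out in turn. Chosen after seeing the data were library sizes alone and leaving out IF mice with high marker sums. From the lists, at most 3 genes per comparison are named, those of largest absolute log2 fold change with a mean of at least 1 CPM, and not every gene counted in a list is named. Figures used Python 3.11.15 and matplotlib 3.10.9.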

Additional observations from a re-analysis of the deposited data

Results flagged for a closer look

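Of 84 groups of 7 or 8 libraries, 8 held a library set far apart from the rest of its group, by the gap to its nearest neighbour over the range of the group. For independent groups of normal values, chance alone gives about 1 in 20 such groups. The groups here share libraries, and whether CPM are normal was not tested, so an excess over chance is not shown. In each case the library was the highest of its group. In muscle these were IF mouse 12 in Bdh1 (29.8 CPM) and in Oxct1 (262 CPM), IF mouse 36 in Bdh1 (48.9 CPM), AL mouse 29 in Oxct1 (395 CPM) and AL mouse 2 in Slc16a1 (34.1 CPM). In liver it was AL mouse 28 in Oxct1 (11.5 CPM). In cortex they were IF mouse 16 in Acat1 (86.5 CPM) and AL mouse 25 in Slc16a1 (36.7 CPM).

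There were also 10 differences in response to diet between groups that passed the test of the difference itself. Between mice 25-40 and mice 1-16 they were Slc16a6 in liver (1.43) and Slc16a7 in muscle (-2.17), where the adipocyte sums went from 118 to 759 CPM in mice 1-16 and from 255 to 186 CPM in mice 25-40. Between tissues of mice 1-16 they were, for muscle against liver, Bdh1 (-1.20), Oxct1 (-1.01), Slc16a7 (1.24) and Slc16a6 (1.21). For cortex against liver they were Oxct1 (-0.82), Slc16a7 (-0.68) and Slc16a6 (1.73), and for cortex against muscle Slc16a7 (-1.91). These values share libraries and are not separate pieces of evidence. Those between tissues take 1 spread per gene over the 3 tissues. The SE of Bdh1 there (0.34) is below its SE in muscle fitted alone (0.43), where it was not called. Of all genes tested, 23.7% differed between the sets in liver and 14.2% in muscle. Between tissues of mice 1-16 the shares were 31% for muscle against liver, 26.7% for cortex against liver and 3.8% for cortex against muscle. Beside these shares the count of 10 is not in itself a result about the 7 genes. Markers and overlapping genes that moved beside them are given above, and their part was not tested.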

How the results depend on the processing

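Over all alternatives, the value of a member kept its side of the threshold and its direction 1063 times. It kept its side and changed sign without being called in either fit 64 times, passed newly 17 times, no longer passed 16 times and reversed 9 times. The number of members called stayed within 1.5 times its reported value 137 times and moved 6 times. Reversed here means a change of sign in a value called in at least 1 of the fits. The 64 changes of sign without a call had reported values of up to 0.35 in size. All 9 reversals came with library sizes alone in place of TMM in levels between tissues, an alternative chosen after seeing the data. In mice 1-16 these were Slc16a1 for cortex against liver (0.38), and for cortex against muscle Bdh1 (1.03), Bdh2 (0.28), Oxct1 (0.12), Slc16a1 (0.28) and Slc16a6 (1.01). In mice 25-40 they were Slc16a6 for cortex against liver (0.11), and for cortex against muscle Slc16a1 (0.061) and Slc16a6 (0.73). The factor that this fit leaves out has the sign of each of these shifts.

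In muscle of mice 1-16 the number of members called for diet went from 1 to 3 with DESeq2 and, after seeing the data, to 3 without the IF mice of adipocyte sums above 1000 CPM. With each library left out in turn it ran from 1 to 3. Over all genes edgeR called 3463 of 15025 there (23%). That count stayed within 1.5 times its value with DESeq2 and without those IF mice. The cause of the change in the number of members called was not tested.

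Over all genes, the count for diet in cortex of mice 1-16, 1332, became 2259 with DESeq2, 382 with the replicate block, 498 without mice 2 and 10 and 294 with the AL library of mouse 1. In mice 25-40 the diet counts with DESeq2 were 6 in liver, 91 in muscle and 73 in cortex against 0, 1 and 2 with edgeR. There the muscle count was 5 with no filter and the cortex count 0 with the replicate block. For the interaction in cortex, 397 became 220 with no filter. For differences in response between tissues of mice 25-40, muscle against liver went from 1 to 2 with RLE, 13 without the animal block and 4 with library sizes alone. Cortex against liver went from 0 to 12 without the animal block, and cortex against muscle from 1 to 0 with library sizes alone. The cause was not tested.

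Limits remain. Slc16a7 in muscle and Oxct1 in liver rest on low counts, 9 to 139 and 36 to 249 reads a library in mice 1-16. How reads in stretches shared with an overlapping gene were counted is not stated. Bulk RNA levels do not measure protein, transport or ketone bodies in blood. Males and females were kept as separate sets, so sex and handling cannot be told apart, and AL and IF mice are different animals.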

Other observations

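The AL cortex library of mouse 1, which goes against its label and entered the tests in 1 alternative alone, held 10219 reads of Xist and 0 reads of 4 Y-linked genes. Its source was not looked for.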
